A study of Rattus norvegicus with 9 samples.

Results

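The natriuretic peptides and the stress genes that rise with them in hypertrophied hearts were followed here across cultures of neonatal rat cardiomyocytes infected with 3 lentiviruses. The 8 genes were chosen by name: Nppa and Nppb, Ankrd1, the four-and-a-half-LIM-domain genes Fhl1 and Fhl2, the Xin repeat genes Xirp1 and Xirp2, and Rcan1. The deposited tables list 7 of the 8, among 14607 genes listed in any library. Xirp1 was not analysed here. All 7 listed genes passed the filter on low counts, which kept 11761 genes for testing. The cells came from wild-type Sprague Dawley rats, 1 to 2 days old, were exposed to virus for 16 h and were kept in serum-containing medium for 48 h more. The 3 groups of 3 libraries each were lenti-TCF7L2, which carried TCF7L2 for overexpression, lenti-shTCF7L2, which carried a short hairpin RNA for its knockdown, and lenti-NC, the lentiviral vector control. The sample titles call the overexpressed form WT, and the submitters' names for the deposited values use GFP for lenti-NC. The study set viruses meant to raise or lower TCF7L2, a DNA-binding partner of β-catenin in canonical Wnt signalling, against the control virus. The labels name neither the promoter that drove the insert nor its species, and they do not say whether replicates were separate cultures. The p-values therefore measure only the spread between these samples, which may be technical.

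Nppa encodes the precursor of atrial natriuretic peptide and Nppb that of brain natriuretic peptide, hormones that lower blood pressure by promoting salt and water loss through the receptor Npr1. Both are expressed in the ventricles of the fetal and newborn heart, decline there after birth and return under pressure overload or stretch, which makes them the standard read-outs of cardiomyocyte hypertrophy. Ankrd1, Fhl1, Fhl2, Xirp2 and Rcan1 belong to the same stress response. Their products sit at the titin spring, the Z disc or the intercalated disc, or restrain the phosphatase calcineurin, whose target NFAT turns on hypertrophic genes.

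The libraries held between 15085922 and 16478295 expected counts (estimated fragments per gene). Tcf7l2, the targeted gene, averaged 144 ± 60.1 CPM (counts relative to TMM-scaled library size) with lenti-TCF7L2, 27.3 ± 2.63 CPM with lenti-shTCF7L2 and 36.8 ± 2.99 CPM with lenti-NC (SD, n = 3 each). It rose with lenti-TCF7L2 against lenti-NC (log2 difference 1.97, adjusted p = 0.000846 by edgeR), but was not called lower with the hairpin (-0.43, 95% interval -1.03 to 0.17, adjusted p = 0.511). All 3 hairpin libraries nevertheless held less Tcf7l2 than every lenti-NC library, where 21.0% of all tested genes were lower without overlap. In 4 of 22 other settings Tcf7l2 was called lower with the hairpin, and the log2 difference ran from -0.515 to -0.356 over the settings. The labels call the cells cardiomyocytes, and 17 of 18 cardiomyocyte markers were listed in every library. The summed level of these 17 ran from 12861 to 16336 CPM with lenti-TCF7L2, from 28315 to 28729 CPM with lenti-shTCF7L2 and from 29418 to 29949 CPM with lenti-NC. Fibroblast transcripts were also abundant: Col1a1, a fibrillar collagen, averaged 3801 FPKM (a level corrected for gene length and depth) with lenti-TCF7L2, 3965 with lenti-shTCF7L2 and 3027 with lenti-NC. Neither TCF7L2 virus had Col1a1 called against the control (adjusted p = 0.068 and 0.109 by edgeR). Its order of groups does not stand for fibroblast transcripts as a whole. Of 12 fibroblast markers, the hairpin group had 4 called lower and 0 higher (median log2 difference -0.31). The lenti-TCF7L2 group had 5 higher and 2 lower (median 0.22). Library 3 of lenti-TCF7L2 stood apart by gene length. It also held the least Tcf7l2 of its group, at 85.7 CPM against 142 and 206 CPM in libraries 1 and 2. Leaving it out removes both. Its genes of up to 1000 bases had a median log2 difference of 0.49 from the lenti-NC mean and its genes over 8000 bases one of -0.98, against at most 0.14 and at least -0.33 in libraries 1 and 2 of that group. In bulk RNA, fewer cells of a type and less RNA per cell cannot be told apart.

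With lenti-TCF7L2, every one of the 7 listed genes fell against lenti-NC. Mean CPM differed by -23.8% for Fhl2, the smallest change, and by -57.1% for Xirp2, the widest, and the median log2 difference was -0.81, against 0.03 over all genes tested. By edgeR's quasi-likelihood test at an adjusted p under 0.05, 7 of 7 were called lower, where 13.8% of all tested genes were. With lenti-shTCF7L2 against lenti-NC, 0 of 7 were called, where 2.32% of all tested genes were called lower and 1.32% higher. The natriuretic peptides, Ankrd1, Fhl1 and Fhl2 lay below lenti-NC in all 3 libraries, where 21.0% of all tested genes did. Rcan1 lay above it, where 19.9% did. Between the TCF7L2 viruses, 4 of 7 were called lower with lenti-TCF7L2 than with lenti-shTCF7L2 (Nppa, Fhl1, Xirp2 and Rcan1), where 14.7% of all tested genes were. Both comparisons with lenti-NC use the same control libraries, and their values are given side by side for that reason.

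Nppa had the highest mean FPKM of all 14607 genes in each of the 3 groups. It alone took 0.491% to 0.663% of all counts with lenti-TCF7L2, 0.923% to 1.03% with lenti-shTCF7L2 and 1.05% to 1.24% with lenti-NC. Ankrd1 ranked 33 with lenti-TCF7L2, 17 with lenti-shTCF7L2 and 15 with lenti-NC, and Nppb ranked 58, 31 and 16 in the same groups. The 7 genes together took 0.876% to 1.18% of the counts with lenti-TCF7L2, 1.5% to 1.62% with lenti-shTCF7L2 and 1.76% to 1.96% with lenti-NC. Below these 3 genes the order differed between groups. With lenti-NC it was Fhl1, Fhl2, Rcan1 and Xirp2, with no overlap between neighbours. With lenti-shTCF7L2, Rcan1 stood above Fhl2. With lenti-TCF7L2, Fhl2 had a higher mean than Fhl1 but their libraries overlapped, as did those of Ankrd1 and Nppb.

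**Figure D1:**
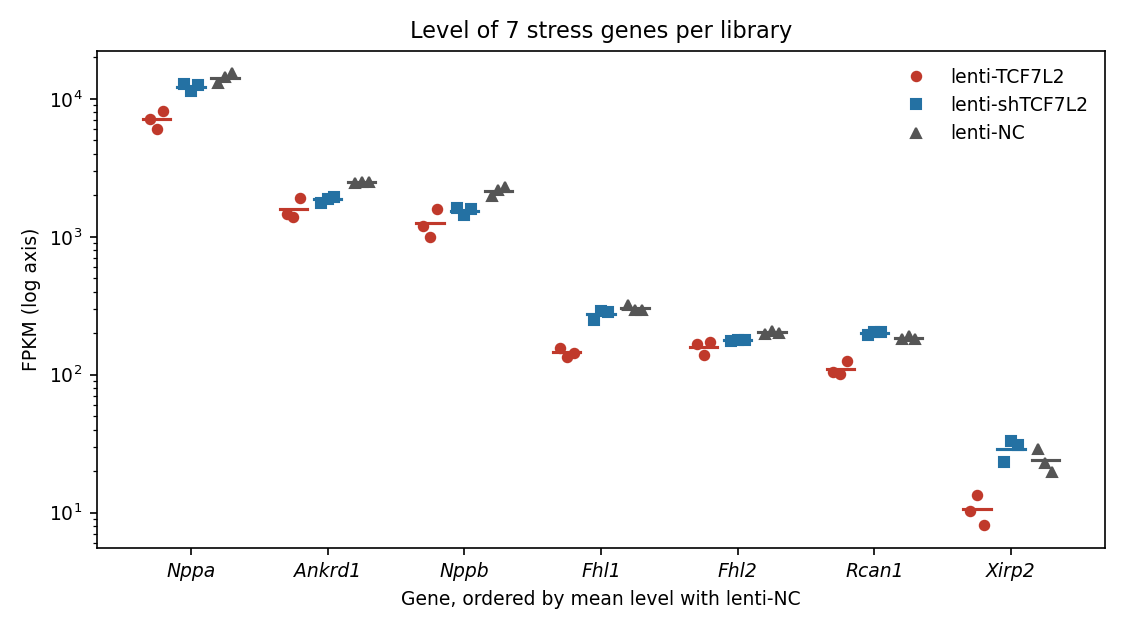
FPKM on a log axis of the 7 listed stress genes in each of 9 libraries, with a bar at each group's mean. Nppa sits at or above 6070.3 FPKM in every library, and the lenti-TCF7L2 points lie below the lenti-NC points in all 7 genes.

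Nppa was listed at 7108, 6070.3 and 8152 FPKM in the lenti-TCF7L2 libraries, 12739.5, 11401 and 12613.5 FPKM in the lenti-shTCF7L2 libraries, and 12934, 14377 and 15306.5 FPKM in the lenti-NC libraries. All lenti-TCF7L2 libraries were far below the other 6, and the lenti-shTCF7L2 libraries lay just below the lowest control. The fall with lenti-TCF7L2 was -1.05 on the log2 scale of CPM (SE 0.13, adjusted p = 0.000519 by edgeR's quasi-likelihood test with Benjamini-Hochberg adjustment over all genes). For lenti-shTCF7L2 against the control virus it was -0.24 (95% interval -0.53 to 0.04, adjusted p = 0.407). Against lenti-shTCF7L2, lenti-TCF7L2 was lower by a log2 difference of -0.80 (SE 0.13, adjusted p = 0.00153). That last call ended in 1 of 22 other settings, limma on log2(FPKM + 1) with no filter (adjusted p = 0.052).

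Nppb was listed at 1206, 999 and 1595 FPKM with lenti-TCF7L2, 1609.8, 1431 and 1592 FPKM with lenti-shTCF7L2, and 1988, 2169 and 2293 FPKM with lenti-NC. Both TCF7L2 viruses were below every control library and overlapped each other, through the high library 3 of lenti-TCF7L2. The fall with lenti-TCF7L2 was -0.81 (SE 0.16, adjusted p = 0.00463). The lenti-shTCF7L2 libraries differed from the control by -0.51 (95% interval -0.86 to -0.16, adjusted p = 0.127). Set against lenti-shTCF7L2, Nppb with lenti-TCF7L2 differed by -0.30 (95% interval -0.65 to 0.05, adjusted p = 0.163), and without library 3 of lenti-TCF7L2 it was -0.51 (adjusted p = 0.000406). Over all single left-out libraries it ran from -0.51 to -0.16, the smallest without library 2 of lenti-TCF7L2.

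Nppb and Nppa lie next to each other on chromosome 5, on the same strand, with 0 genes between them and 12176 bases between their starts in the rat assembly GRCr8. The expected counts of the libraries were assigned on rn6, so the positions here serve only to show the sequences. The 250 bases before each start, from RefSeq on GRCr8, are shown because these are the stretches at which GATA4, TEAD and other cardiac factors are known to act in rodents. Capitals mark motifs found on either strand: the GATA site GATAA, the TEAD-bound M-CAT site CATTCC and the TATA box TATAAA; a match on the other strand appears as its reverse complement. Positions count back from the start, with -1 as the last base before it.
Nppa (chr5:163711934-163712183, + strand): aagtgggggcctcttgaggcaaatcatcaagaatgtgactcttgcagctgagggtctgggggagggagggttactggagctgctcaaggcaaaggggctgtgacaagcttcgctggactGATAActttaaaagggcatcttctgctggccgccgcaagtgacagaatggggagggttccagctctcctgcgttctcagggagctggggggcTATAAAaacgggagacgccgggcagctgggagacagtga
Nppb (chr5:163699758-163700007, + strand): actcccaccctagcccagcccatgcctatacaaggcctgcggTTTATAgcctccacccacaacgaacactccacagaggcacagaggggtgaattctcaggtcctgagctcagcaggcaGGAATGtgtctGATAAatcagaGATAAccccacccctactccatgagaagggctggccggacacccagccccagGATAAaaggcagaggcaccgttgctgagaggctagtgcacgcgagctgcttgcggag
The Nppa window holds 1 GATA site, whose first base is at -131, and a TATA box at -39. The Nppb window holds 3 GATA sites, at -120, -109 and -57, and an M-CAT site at -131 on the other strand. Its TATAAA match, also on the other strand, lies at -208. Of 33469 rat promoter windows of this length, 23.5% hold GATAA, 12.1% hold CATTCC and 12.9% hold TATAAA. The core letters CTTTGA bound by TCF7L2 and its relatives occur in 13.9% of windows and were not found in the windows of Nppa, Nppb, Fhl1, Fhl2, Xirp2 or Rcan1; Ankrd1 has no window in the table used. This says only that these letters are not in these windows.

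Because the neighbours share a locus and a stress response, their ratio was read within each library, where it does not depend on scaling between libraries. Nppb counts were 12.6%, 12.2% and 14.6% of Nppa counts with lenti-TCF7L2, 9.41%, 9.35% and 9.40% with lenti-shTCF7L2, and 11.4%, 11.2% and 11.2% with lenti-NC. The 3 groups did not overlap, with lenti-TCF7L2 above and lenti-shTCF7L2 below the control. On the log2 scale the ratio differed by 0.22 for lenti-TCF7L2 and by -0.26 for lenti-shTCF7L2, both against lenti-NC. Without library 3 of lenti-TCF7L2, the first of these was 0.14. Between the TCF7L2 viruses it differed by 0.48. Each of these gave p = 0.1 in the 2-sided exact permutation test, the smallest p that 3 libraries against 3 allow, and 0.12 after Benjamini-Hochberg adjustment over the 6 ratio comparisons made. No ratio comparison could therefore pass 0.05. 

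**Figure D2:**
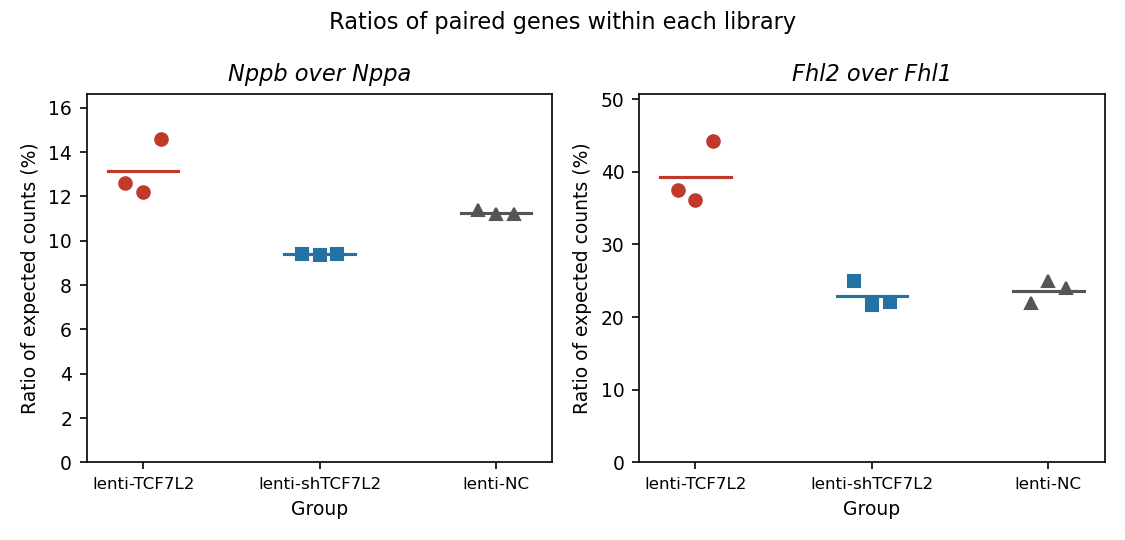
Ratio of expected counts within each library, in percent, for Nppb over Nppa (left) and Fhl2 over Fhl1 (right), with a bar at each group's mean. The Nppb ratio is 12.2% to 14.6% with lenti-TCF7L2, 9.35% to 9.41% with lenti-shTCF7L2 and 11.2% to 11.4% with lenti-NC; the Fhl2 ratio stands apart only with lenti-TCF7L2.

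Ankrd1 encodes a cardiac ankyrin repeat protein that binds the spring region of titin and also enters the nucleus as a cofactor of transcription. It was listed at 1454, 1392 and 1902 FPKM with lenti-TCF7L2, 1771, 1881 and 1957 FPKM with lenti-shTCF7L2, and 2463, 2515 and 2478 FPKM with lenti-NC. The controls were tight, both TCF7L2 viruses lay below them in every library, and library 3 of lenti-TCF7L2 reached into the lenti-shTCF7L2 range. Ankrd1 fell with lenti-TCF7L2 by a log2 difference of -0.70 (SE 0.12, adjusted p = 0.00278). The lenti-shTCF7L2 libraries differed from the control by -0.44 (95% interval -0.71 to -0.17, adjusted p = 0.0928). Against lenti-shTCF7L2, the lenti-TCF7L2 difference was -0.26 (95% interval -0.53 to 0.01, adjusted p = 0.130), and -0.42 without library 3 of lenti-TCF7L2 (adjusted p = 8.38e-05); over all single left-out libraries it ran from that value to -0.18, the smallest without library 2.

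Fhl1 and Fhl2 encode small proteins made of LIM domains, the zinc-binding folds that dock onto other proteins. Fhl1 binds the titin spring and mediates the response to stretch, and Fhl2, expressed mainly in the heart, is known to restrain calcineurin. Fhl1 was listed at 157, 135 and 143 FPKM with lenti-TCF7L2, 248, 289 and 286 FPKM with lenti-shTCF7L2, and 318, 294 and 295 FPKM with lenti-NC. The lenti-TCF7L2 libraries lay well below all others, and the highest lenti-shTCF7L2 library lay just below the lowest control. The fall with lenti-TCF7L2 was -1.12 (SE 0.09, adjusted p = 7.87e-05), and against lenti-shTCF7L2 it was -0.95 (SE 0.09, adjusted p = 9.56e-05). The lenti-shTCF7L2 libraries differed from the control by -0.17 (95% interval -0.37 to 0.02, adjusted p = 0.386). The length the tables give for Fhl1, which RefSeq lists with 5 known transcript records, was 2228 bases in library 3 of lenti-TCF7L2 and 2310 to 2323 bases in the other 8 libraries.

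Fhl2 had the smallest of the 7 falls with lenti-TCF7L2 against lenti-NC. It was listed at 168, 139 and 172 FPKM with lenti-TCF7L2, 176, 177 and 179 FPKM with lenti-shTCF7L2, and 198, 209 and 201 FPKM with lenti-NC. The 3 groups did not overlap, but the lenti-TCF7L2 libraries varied and their upper edge was close to the lenti-shTCF7L2 values. Fhl2 fell with lenti-TCF7L2 by a log2 difference of -0.39 (SE 0.09, adjusted p = 0.00892). For lenti-shTCF7L2 against lenti-NC it was -0.22 (95% interval -0.42 to -0.03, adjusted p = 0.241). For lenti-TCF7L2 against lenti-shTCF7L2 it was -0.17 (95% interval -0.37 to 0.03, adjusted p = 0.161), and -0.23 without library 3 of lenti-TCF7L2 (adjusted p = 0.0210); over all single left-out libraries it ran from that value to -0.08, the smallest without library 2. The counts of Fhl2 were 37.5%, 36.1% and 44.2% of those of Fhl1 with lenti-TCF7L2, 25%, 21.7% and 22.1% with lenti-shTCF7L2, and 21.9%, 25% and 24.0% with lenti-NC. Only the lenti-TCF7L2 libraries stood apart. The log2 ratio differed by 0.73 from lenti-NC and by 0.77 from lenti-shTCF7L2 (exact permutation p = 0.1 each, n = 3 a group). Between lenti-shTCF7L2 and lenti-NC it differed by -0.04 (exact permutation p = 0.8), and by -0.11 to -0.003 with single libraries left out.

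Xirp2 encodes a large actin-binding protein with Xin repeats, found at the Z disc and the intercalated disc, and rises in mouse hearts under angiotensin. It was listed at 10.3, 13.4 and 8.1 FPKM with lenti-TCF7L2, 23.5, 33.25 and 30.8 FPKM with lenti-shTCF7L2, and 28.8, 23.0 and 19.9 FPKM with lenti-NC. The lenti-TCF7L2 libraries lay below all others, and the other groups overlapped. The fall with lenti-TCF7L2 was -1.22 against lenti-NC (SE 0.21, adjusted p = 0.00263) and -1.48 against lenti-shTCF7L2 (SE 0.21, adjusted p = 0.000836). The lenti-shTCF7L2 libraries differed from the control by 0.26 (95% interval -0.21 to 0.72, adjusted p = 0.652). At 12178 bases Xirp2 is the longest of the 7 genes, and it was lowest in the library whose long genes were low. With an adjustment for gene length in each library the difference from lenti-NC was -0.73 (adjusted p = 0.00674). With that adjustment and without library 3 it was -0.87 (adjusted p = 3.65e-05).

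Rcan1 encodes an inhibitor of calcineurin whose own transcription is raised by NFAT, so that its level is used as a read-out of calcineurin activity. The tables give 1 value for the gene and do not separate the NFAT-driven transcript. Rcan1 was listed at 105, 101 and 127 FPKM with lenti-TCF7L2, 195, 203 and 205 FPKM with lenti-shTCF7L2, and 183, 191 and 180.4 FPKM with lenti-NC. The lenti-TCF7L2 libraries were well below the others, and the lenti-shTCF7L2 libraries lay just above every control. The fall with lenti-TCF7L2 was -0.79 (SE 0.09, adjusted p = 0.000375), and against lenti-shTCF7L2 it was -0.88 (SE 0.09, adjusted p = 0.000157). For lenti-shTCF7L2 against lenti-NC it was 0.09 (95% interval -0.11 to 0.29, adjusted p = 0.738).

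The windows before Xirp2, Fhl2 and Rcan1 are shown beside the peptide promoters because the letters they hold differ. Capitals mark the same motifs and, in addition, the MEF2 consensus and the CArG box bound by serum response factor.
Xirp2 (chr3:72533936-72534185, + strand): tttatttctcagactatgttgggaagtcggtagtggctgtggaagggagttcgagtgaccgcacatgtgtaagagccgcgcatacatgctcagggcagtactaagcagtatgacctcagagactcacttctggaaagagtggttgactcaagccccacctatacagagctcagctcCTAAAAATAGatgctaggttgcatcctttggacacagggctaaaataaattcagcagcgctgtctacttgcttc
Fhl2 (chr9:52954541-52954790, - strand): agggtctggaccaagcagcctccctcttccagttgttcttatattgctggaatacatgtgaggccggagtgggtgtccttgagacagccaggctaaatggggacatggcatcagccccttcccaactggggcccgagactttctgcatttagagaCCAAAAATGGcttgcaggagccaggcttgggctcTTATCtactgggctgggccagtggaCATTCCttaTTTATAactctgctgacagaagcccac
Rcan1 (chr11:45118237-45118486, - strand): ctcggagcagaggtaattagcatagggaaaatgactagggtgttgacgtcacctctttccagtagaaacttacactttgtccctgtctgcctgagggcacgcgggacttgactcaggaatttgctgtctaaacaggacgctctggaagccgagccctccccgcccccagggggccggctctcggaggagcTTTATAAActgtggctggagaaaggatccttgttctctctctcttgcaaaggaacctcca
The Xirp2 window holds a MEF2 consensus at -74, a motif found in 1.68% of windows. The first of 2 windows listed for Fhl2 holds a CArG box, found in 1.5% of windows, with a GATA site, an M-CAT site and a reversed TATAAA, and its second window, not printed, also holds a CArG box. The Rcan1 window holds TATAAA on both strands, at -60 and -58, where the matches overlap. The first of 2 windows listed for Fhl1 holds a GATA site, a CArG box and a reversed TATAAA, and its second holds none of the 6 motifs searched.

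**Figure D3:**
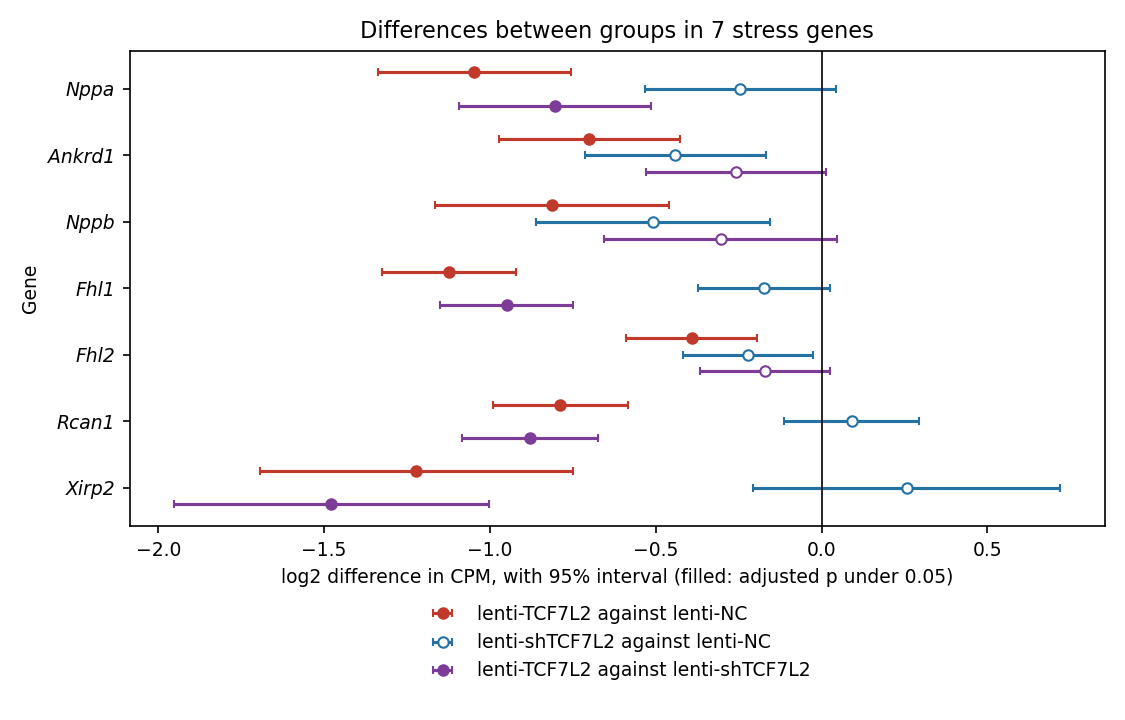
log2 differences in CPM for the 7 genes with their 95% intervals in the 3 comparisons, filled where the adjusted p is under 0.05. All 7 differences of lenti-TCF7L2 from lenti-NC are filled and lie between -1.22 and -0.39; none of lenti-shTCF7L2 from lenti-NC is filled.

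The 7 falls with lenti-TCF7L2 against lenti-NC kept their direction and their call in every other setting in which the gene entered the test. Their groups did not overlap in 7 of 7 genes, where 22.0% of all tested genes were lower without overlap. Between the TCF7L2 viruses the groups did not overlap in 5 of 7, the 4 called and Fhl2, where 23.2% of all tested genes were lower without overlap. For lenti-shTCF7L2 against lenti-NC the number called changed with the libraries fitted and with the method. In the fit of all 9 libraries, 0 of 7 passed in edgeR's quasi-likelihood test. At an unadjusted p under 0.05, 3 of 7 were lower (Nppb, Ankrd1 and Fhl2), where 8.84% of all tested genes were. Without overlap 5 of 7 were lower, where 21.0% of all tested genes were, and Rcan1 was higher, where 19.9% were. When only the 6 libraries of lenti-shTCF7L2 and lenti-NC were fitted, 5 of 7 were called lower, where 15.5% of all tested genes were. The adjusted p was then 1.35e-07 for Nppb, 3.16e-08 for Ankrd1, 0.000375 for Fhl2, 0.00129 for Nppa and 0.0112 for Fhl1. Without library 3 of lenti-TCF7L2, 4 of 7 were called lower (10.9% of all tested genes), and without library 2 of that group 3 of 7 were (3.36%). DESeq2 called 2 of 7 lower (3.70%), limma-voom with sample weights 5 (13.9%) and the length adjustment 4 (5.01%). For lenti-TCF7L2 against lenti-shTCF7L2, all 7 were called lower with limma-voom weights (30.6% of all tested genes), with the length adjustment (19.6%) and without library 3 of lenti-TCF7L2 (22.3%). Xirp2 and Rcan1 were not called in lenti-shTCF7L2 against lenti-NC in any setting.

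Markers of other cell types moved with the lenti-TCF7L2 group. Of 17 cardiomyocyte markers tested, 13 were called lower and 1 higher with lenti-TCF7L2 against lenti-NC, where 13.8% of all tested genes were lower and 18.0% higher; the list's median log2 difference was -0.89. The α-myosin heavy chain Myh6 fell by 1.45 on the log2 scale (adjusted p = 2.41e-05). Of 15 endothelial markers, 13 were called higher and 0 lower. Their summed level was 925 to 1108 CPM with lenti-TCF7L2, 568 to 578 CPM with lenti-shTCF7L2 and 660 to 688 CPM with lenti-NC. Pecam1, an adhesion molecule of endothelium, rose by 2.54 (adjusted p = 8.53e-05). Of 8 macrophage and leukocyte markers tested, 5 were higher, with a summed level of 80.3 to 84.4 CPM with lenti-TCF7L2, 47.9 to 51.1 CPM with lenti-shTCF7L2 and 44.7 to 46.7 CPM with lenti-NC. In that list Cd163 was at 0 in 2, 3 and 3 of the 3 libraries of these groups. Of 12 fibroblast markers 5 were higher and 2 lower, and of 8 smooth muscle and pericyte markers 1 was higher. With lenti-shTCF7L2, 0 of 17 cardiomyocyte and 0 of 15 endothelial markers were called, 4 of 12 fibroblast markers were lower, and 2 of 8 smooth muscle and 2 of 8 macrophage markers were higher. The smooth muscle and macrophage calls, and the smooth muscle call with lenti-TCF7L2, each ended under several single left-out libraries. Over all tested genes, 2.32% were called lower and 1.32% higher with lenti-shTCF7L2. Without library 3 of lenti-TCF7L2, 5 cardiomyocyte markers were called lower with lenti-shTCF7L2, and 3 endothelial markers were called, 1 higher and 2 lower. In that setting 7 fibroblast markers were lower and 1 higher, where 10.9% of all tested genes were lower. The macrophage count with lenti-TCF7L2 was 3 without lenti-NC library 1 or 2 or lenti-TCF7L2 library 1. The part of these shifts in the falls of the 7 genes was not tested.

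Set against the median of the 17 cardiomyocyte markers within each library, 4 of the 7 genes overlapped between lenti-TCF7L2 and lenti-NC. That median itself differed by -0.97 on the log2 scale. Relative to it, Nppa differed by -0.09 and Fhl1 by -0.16 (exact permutation p = 0.6 and 0.4, n = 3 a group), with overlapping groups. Nppb differed by 0.13 and Xirp2 by -0.27, also with overlap (exact permutation p = 0.6 each). Fhl2, Ankrd1 and Rcan1 stood above the control in all 3 libraries, by 0.57, 0.25 and 0.17 (exact permutation p = 0.1 each, the smallest possible), where 76.8% of all tested genes did. These values moved with the setting. With single libraries left out, Nppb ran from 0.05 to 0.28, Fhl1 from -0.33 to -0.02 and Rcan1 from 0.11 to 0.23. On FPKM in place of CPM, Nppb differed by 0.02, Nppa by -0.20, Fhl1 by -0.25, Ankrd1 by 0.14 and Rcan1 by 0.06. With lenti-shTCF7L2 the markers' median differed by -0.15. Relative to it Nppb differed by -0.35 and Ankrd1 by -0.29, both below every control library, where 7.32% of all tested genes were. Rcan1 differed by 0.25, above every control library, where 46.1% were, and by 0.11 on FPKM (exact permutation p = 0.1 for each of the 3 genes). Between the TCF7L2 viruses, Ankrd1 differed by 0.54, Nppb by 0.48 and Fhl2 by 0.63, without overlap, where 71.3% of all tested genes were higher. Xirp2 differed by -0.68 without overlap, where 1.56% were lower, and by -0.39 without library 3 of lenti-TCF7L2 (exact permutation p = 0.1 for each of the 4 genes). In all, 21 such comparisons were made, and the smallest p adjusted over them was 0.21.

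**Figure D4:**
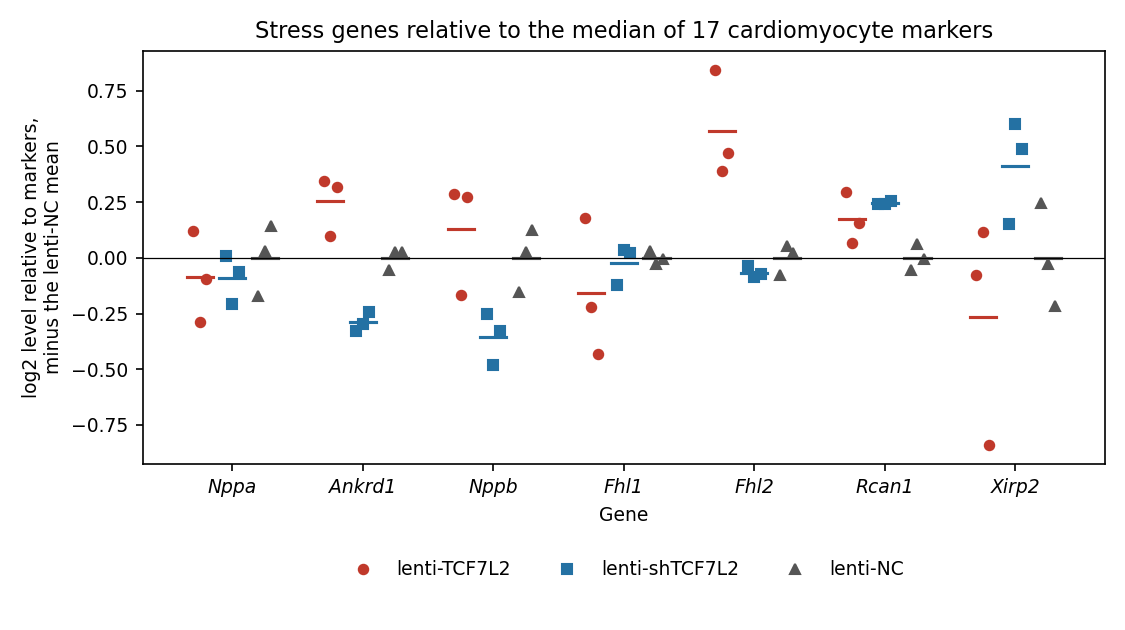
log2 level of each gene relative to the median of 17 cardiomyocyte markers in the same library, minus the mean of that value over the lenti-NC libraries, with a bar at each group's mean. Fhl2, Ankrd1 and Rcan1 with lenti-TCF7L2 lie above all lenti-NC points, where 76.8% of all tested genes do. With lenti-shTCF7L2, Rcan1 lies above them, where 46.1% do, and Nppb and Ankrd1 below them, where 7.32% do. Nppa overlaps in all 3 groups.

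The machinery that processes, senses and clears the peptides did not move as one. Of 15 such genes tested, 5 were called higher and 4 lower with lenti-TCF7L2 against lenti-NC, with a median log2 difference of -0.23. Over all tested genes, 18.0% were higher and 13.8% lower. Mme, the protease neprilysin that degrades the peptides, rose to 43.4 ± 8.14 CPM with lenti-TCF7L2, against 25.1 ± 1.52 CPM with lenti-NC (log2 difference 0.79, adjusted p = 0.00245). With lenti-shTCF7L2 it fell to 11.4 ± 0.734 CPM (-1.14, adjusted p = 0.00411), the only one of the 15 called there. Without library 3 of lenti-TCF7L2, 6 were called, 5 of them lower, where 10.9% of all tested genes were lower. Npr2, the receptor of C-type natriuretic peptide, rose by 0.46 and Pde2a, a phosphodiesterase stimulated by cyclic GMP, by 0.71 with lenti-TCF7L2 (adjusted p = 0.00212 and 0.000348). Npr1, the receptor shared by both peptides, was higher with lenti-TCF7L2 than with lenti-shTCF7L2 by 0.93 (adjusted p = 0.00109), at 23.5 ± 1.88 and 12.3 ± 1.79 CPM. Against lenti-NC, at 13.6 ± 1.63 CPM, Npr1 was also called higher with lenti-TCF7L2 (0.79, adjusted p = 0.0029). It was not called with lenti-shTCF7L2 (-0.135, adjusted p = 0.759). Without lenti-NC library 1, 5 of the 15 were called with lenti-TCF7L2, all higher.

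Of 17 factors known at natriuretic peptide promoters, 6 were called lower and 1 higher with lenti-TCF7L2 against lenti-NC. Over all tested genes, 13.8% were lower and 18.0% higher there. With lenti-shTCF7L2, 0 were called, and 2 were lower without lenti-TCF7L2 library 3, where 10.9% of all tested genes were. Gata4, a zinc finger factor that binds the GATA site, fell to 308 ± 25.4 CPM with lenti-TCF7L2, against 395 ± 6.62 CPM with lenti-NC (-0.36, adjusted p = 0.00528). Nfatc4 rose by 0.70 (adjusted p = 0.000206). Hand1 fell by 0.70, a call that ended without lenti-NC library 2 or 3 (adjusted p = 0.0900 and 0.0683). The number called lower was 3 without lenti-NC library 1 or lenti-TCF7L2 library 1, and 1 without lenti-NC library 2 or 3.

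Among 20 genes of calcineurin and NFAT signalling other than Rcan1, 7 were called lower and 3 higher with lenti-TCF7L2 against lenti-NC. The shares over all tested genes were 13.8% lower and 18.0% higher. Rcan2, the paralog of Rcan1, fell to 83.9 ± 4.59 CPM with lenti-TCF7L2, against 202 ± 6.43 CPM with lenti-NC (-1.27, adjusted p = 2.37e-05). It stood at 159 ± 4.06 CPM with lenti-shTCF7L2 (-0.35, adjusted p = 0.0204), a call that ended when any 1 library of lenti-shTCF7L2 or lenti-NC was left out (adjusted p = 0.0575 to 0.110). Dyrk1a, a kinase that opposes NFAT, fell by 0.54 with lenti-TCF7L2 (adjusted p = 0.000231). Without lenti-TCF7L2 library 2 the split was 11 lower and 5 higher.

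Of 15 tested targets and members of the stretch-sensing YAP and TEAD pathway, to which Ankrd1 belongs, 2 were called higher and 0 lower with lenti-TCF7L2 against lenti-NC. Of all tested genes, 18.0% were called higher and 13.8% lower there. Cyr61, a matricellular target of YAP, rose by 0.35 (adjusted p = 0.00425) and F3, tissue factor, by 0.74 (adjusted p = 0.000247). The median of the list was -0.21. The calls were 2 higher and 2 lower without lenti-TCF7L2 library 1, 2 higher and 5 lower without library 2, and 3 higher and 3 lower without library 3. Ankrd1 itself fell, as given above.

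Of 18 other fetal and hypertrophy genes, 10 were called lower and 2 higher with lenti-TCF7L2 against lenti-NC, with a median log2 difference of -0.47. Among all tested genes, 13.8% were lower and 18.0% higher. Myh7, the slow myosin heavy chain that stands for the fetal programme in rodents, fell by 1.04 (adjusted p = 7.64e-05) and Casq1 fell by 1.32 (adjusted p = 2.72e-05). With lenti-shTCF7L2, 2 were called higher and 1 lower, where 1.32% of all tested genes were higher and 2.32% lower. Without library 3 of lenti-TCF7L2, 4 were higher and 2 lower, where 770 of 11820 tested genes were higher and 1286 lower. The skeletal actin Acta1 rose to 662 ± 32.5 CPM with lenti-shTCF7L2, against 390.5 ± 31.9 CPM with lenti-NC (0.76, adjusted p = 0.00736). Its adjusted p was 0.0501 to 0.0542 without lenti-NC library 2 or 3 or lenti-shTCF7L2 library 2. The secreted stress marker Gdf15 rose by 0.72 and the peptide Edn1, endothelin, fell by 0.60 (adjusted p = 0.00975 and 0.0245). Their calls ended in 4 and 5 single left-out libraries. Against lenti-shTCF7L2, lenti-TCF7L2 had Acta1 lower by a log2 difference of -2.04 (adjusted p = 1.44e-05).

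Partners of the members' products in the sarcomere and at the cell junction were mostly lower with lenti-TCF7L2, where 13.8% of all tested genes were called lower. The lists share genes: 5 named for the titin spring and Z disc and 1 for the Xin partners stand in other lists too. So do 7 cardiomyocyte markers, 4 of the other fetal and hypertrophy genes, 2 promoter factors and 2 calcineurin genes, among others. Ldb3 is also a cardiomyocyte marker. Myh6 counts both as a cardiomyocyte marker and as a fetal gene, and Nfatc4 both as a promoter factor and under calcineurin. The list counts are therefore not independent of each other. Of 15 genes of the titin spring and Z disc, 9 were called lower and 1 higher against lenti-NC. The Z disc protein Ldb3 fell by 1.22 (adjusted p = 0.000289) and the muscle ubiquitin ligase Trim55 fell by 0.79 (adjusted p = 9.98e-05). Without lenti-NC library 1, 6 were called, all lower. Of 16 partners of Xin proteins at the intercalated disc, 13 were called lower and 1 higher; the desmosome protein Pkp2 fell by 0.77 (adjusted p = 5.54e-05) and Nrap, an anchor of actin filaments, fell by 1.27 (adjusted p = 0.000103). With lenti-shTCF7L2 Jup, plakoglobin, was the only one of these called, at -0.51 (adjusted p = 0.00512). Without library 3 of lenti-TCF7L2, 4 of the 16 and 2 of the 15 titin and Z disc genes were called lower. In that setting 10.9% of all tested genes were lower. Of 11 other FHL and LIM-only genes, 5 were called higher and 1 lower with lenti-TCF7L2, where 18.0% of all tested genes were higher. Fhl3, the family member of skeletal muscle, rose by 0.44 (adjusted p = 0.00775) and Lims2 fell by 1.24 (adjusted p = 4.65e-05).

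**Figure D5:**
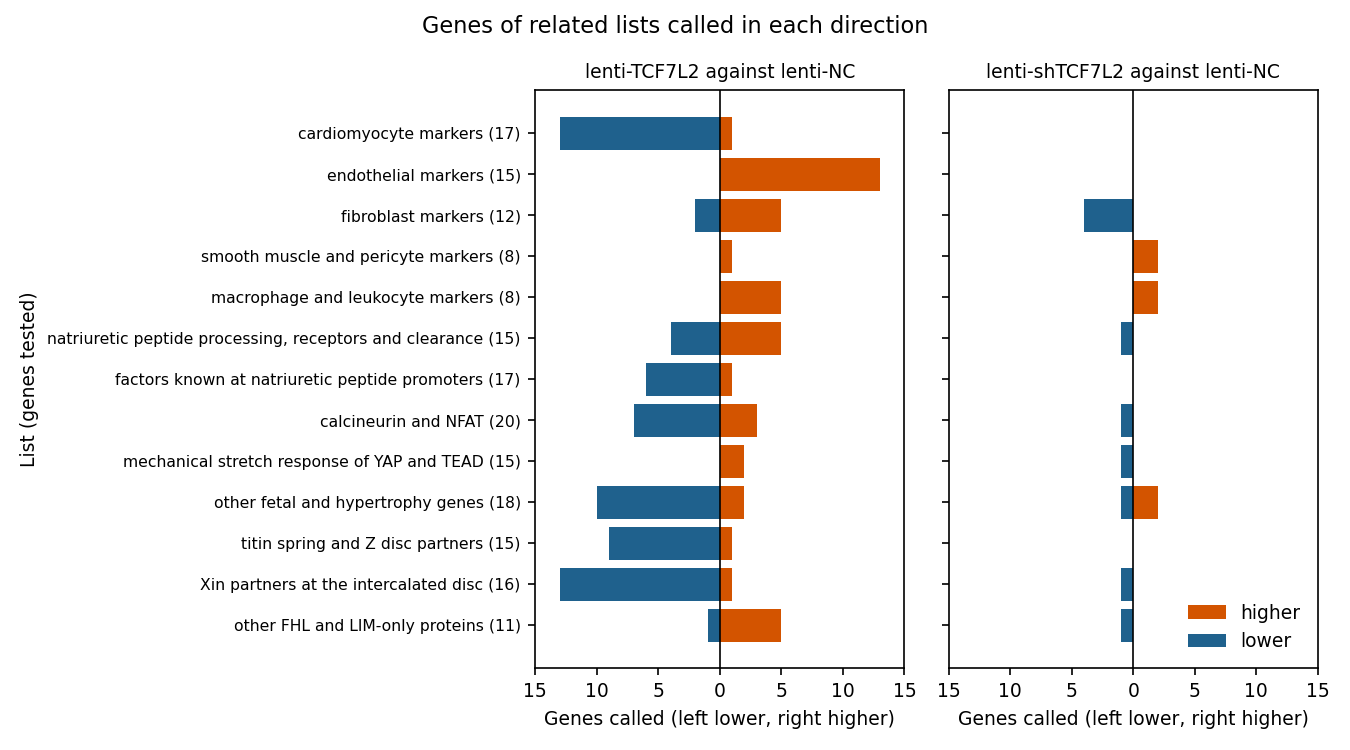
Number of genes of each list called lower (left of 0) or higher (right of 0) by edgeR at an adjusted p under 0.05, with lenti-TCF7L2 (left panel) and lenti-shTCF7L2 (right panel), each against lenti-NC; the number tested stands in brackets. With lenti-TCF7L2, 13 of 16 Xin partners and 13 of 17 cardiomyocyte markers are lower and 13 of 15 endothelial markers higher. Over all tested genes, 13.8% are lower and 18.0% higher in that comparison.

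The genes whose pattern lay closest to each member were found over the 9 libraries, as the root mean square difference of log2 CPM, each centred on its lenti-NC mean, among 10220 genes averaging at least 50 counts. Closest to Nppa was Fabp3, the fatty acid binding protein of heart muscle (0.06), and then Myzap, a protein of the intercalated disc (0.09). Closest to Nppb was Pln, the phospholamban that restrains the calcium pump (0.06). RT1-EC2, a class I histocompatibility gene, was next for Nppb (0.09) and first for Ankrd1 (0.07). Fhl1 lay closest to Tmem38a (0.08) and Casq2 (0.09), both of the sarcoplasmic reticulum, and Fhl2 to Isca1 (0.04) and Oat (0.05). Rcan1 lay closest to Sgca, a sarcoglycan, and to Grb14 (0.08 each). Xirp2 had no near neighbour, with Itga6 at 0.18 and Scn1a at 0.19. Among the members themselves, Nppb and Ankrd1 were the closest pair, 0.13 apart and each within the 6 nearest genes of the other. Nppa was 0.21 from Nppb and ranked Fhl1 nearer, at 0.17. The points share their libraries, so these distances are a description.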

How the data were processed

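Messenger RNA selected with oligo(dT) beads was sequenced on a BGISEQ-500, per the labels' protocols. The submitters' processing notes list the aligners HISAT2 and Bowtie2 beside DESeq2 1.4.5 and RSEM 1.3.1, and the rat build rn6; which step used each is not given in the sources used here. Each library has its own deposited table, which holds expected counts (estimated fragments per gene), FPKM and gene length, per the file headers. The tables list genes with a value above 0, and absent genes were set to 0. Expected counts were rounded to whole numbers, filtered with filterByExpr (2846 of 14607 genes set aside), scaled by TMM and tested with edgeR 4.0.16 in R 4.3.3: quasi-likelihood test, 2-sided, group as the only term, all 9 libraries in 1 fit, Benjamini-Hochberg adjustment over 11761 genes, called at an adjusted p under 0.05. The biological coefficient of variation was 14.9%, and each comparison draws on the spread of the group not compared. The procedure was tested on simulated data. There DESeq2, used only as an alternative, was liberal in its calls and was held to no limit on false ones. Ratios within libraries used exact permutation tests.

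The genes and lists were chosen with earlier results of these data known. Beside the 8 genes and Tcf7l2, the text names up to 3 genes per list and comparison with the smallest adjusted p among those called, and the 2 nearest profiles per gene; Col1a1, outside that rule, was chosen after its values were seen. Gene symbols of 4 list members were matched through RefSeq synonyms, and 10 list symbols were not matched and not used here. Whether equal replicate numbers pair libraries was examined. Their deviations from the group means correlated from -0.067 to 0.151, over 0.1 in 2 of 9 cases, both with library 3 of lenti-TCF7L2. Libraries of unequal number were not compared in this way, so pairing was not settled. The main fit holds no term for it.

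Each test was repeated with other scaling (RLE, upper quartile), other filters (none, or 10 counts in 6 libraries), DESeq2 1.42.0, limma-voom with sample weights, and limma 3.58.1 on log2 FPKM values, adding 1 or 0.1 before the log, filtered at a mean of 1 or unfiltered. Further repeats used the replicate number as a term, fitted only the 6 libraries compared, removed the top 10 genes and Tcf7l2, adjusted for gene length (lowess, span 0.3) or left out each library in turn. Promoter windows are RefSeq's on GRCr8.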

Additional observations from a re-analysis of the deposited data

How the results depend on the processing

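The falls of the 7 genes with lenti-TCF7L2 against lenti-NC kept direction and call in all 23 alternatives, 22 for Nppa, which 1 alternative removes. All 42 ratios of paired genes under alternatives moved by less than 1 SD. Leaving out 1 of 3 libraries cannot move a ratio difference by 1 SD, so this does not measure stability. With single libraries left out, the log2 ratio of Nppb over Nppa in lenti-TCF7L2 against lenti-NC ran from 0.142 to 0.267. With lenti-shTCF7L2 against lenti-NC, the members called were 0, but 2 in DESeq2, 5 with limma-voom sample weights, 5 with only the 6 libraries compared, 4 with the length adjustment, 4 with that and without lenti-TCF7L2 library 3, and 0 to 4 with single libraries left out (3 without library 2 and 4 without library 3 of lenti-TCF7L2). Between the TCF7L2 viruses 4 were called, but 7 with limma-voom sample weights, 7 with the length adjustment, 7 with that and without library 3, and 4 to 7 with single libraries left out (7 without library 3 of lenti-TCF7L2). Over all genes, lenti-TCF7L2 against lenti-NC gave 3741 calls, 7055 with limma-voom weights, 2321 with 6 libraries and 2430 to 5503 with single libraries left out (2430, 2458 and 2486 without lenti-NC libraries 1, 2 and 3). For lenti-shTCF7L2 against lenti-NC, 428 calls became 651 in DESeq2, 3056 with limma-voom weights, 3294 with 6 libraries, 979 with the length adjustment and 2603 with that and without library 3; single left-out libraries gave 88 to 2056, the highest without library 3 of lenti-TCF7L2. Between the TCF7L2 viruses 3890 calls became 7170 with limma-voom weights and 5977 with the length adjustment without library 3, and single left-out libraries gave 2649 to 5405. With the length adjustment and without library 3 of lenti-TCF7L2, 1472 of 11820 tested genes were called lower in lenti-shTCF7L2 against lenti-NC. Between the TCF7L2 viruses, 3035 of the 11820 were called lower in that setting. The share called higher in lenti-shTCF7L2 against lenti-NC was 33.2% in DESeq2 and 45.7% with 6 libraries. The cause of these changes was not tested.

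With the replicate block, 244 genes were called in lenti-shTCF7L2 against lenti-NC, against 428 without it, and no call of a member changed in the 3 comparisons. Relative to the cardiomyocyte markers, differences near 0 turned sign. By the markers' sum in place of their median, Nppa differed by 0.011 (lenti-TCF7L2 against lenti-NC), and Fhl1 by 0.054 and Rcan1 by 0.119 (lenti-TCF7L2 against lenti-shTCF7L2). With single libraries left out, Nppa ran from -0.192 to 0.012 and Xirp2 from -0.458 to 0.02 (lenti-TCF7L2 against lenti-NC), Nppa from -0.103 to 0.101 (lenti-TCF7L2 against lenti-shTCF7L2), and Fhl1 from -0.051 to 0.028 (lenti-shTCF7L2 against lenti-NC).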
